A study of Mus musculus with 6 samples.

Results

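Among the mouse genes that carry only a provisional symbol, those ending in Rik (a RIKEN cDNA clone) or made of Gm and a number (a predicted gene model), 105 were on in muscle and low in fibroblasts. They were chosen from the read counts themselves. A symbol was kept when its mean over the 2 muscle libraries was at least 2 CPM (counts scaled to the library total) and at least 8 times the mean of the 2 mouse embryonic fibroblast libraries after 0.1 CPM was added to the latter. The symbol Gm7325, an older name of the fusion peptide gene Mymx, was left out. The 105 came from 30560 Rik and Gm symbols in a table of 55286 gene symbols. The muscle and fibroblast values below are therefore a description of the choice and carry no test.

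Provisional symbols cover long noncoding RNAs, transcripts antisense to a neighbour, pseudogenes and protein-coding genes that had not been named when the annotation was made. Muscle fibres transcribe a large set of tissue-specific genes under MYOD1, MYOG and the MEF2 factors, and several muscle noncoding RNAs host microRNAs or overlap sarcomere genes. The myogenic factors bind short DNA words called E-boxes.

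The 6 samples were 2 libraries of mouse embryonic fibroblasts (labelled MEF), 2 of endogenous muscle (labelled Muscle) and 2 of cells labelled Direct reprogramming (transdifferentiated cells in what follows). The labels name no strain, age, muscle type, converting factor or time after conversion. They also do not say whether replicates were separate cultures or animals, so p-values measure the spread between these libraries alone, part of which may be technical. Libraries held between 16817033 and 24584951 counted reads. All 10 skeletal muscle markers listed for this work (among them Myod1, Myog, Ckm and Acta1) rose in transdifferentiated cells over MEF by edgeR. The median of the 105 transcripts was 1 count in each MEF library, 128 and 73 counts in muscle, and 63 and 83 counts in transdifferentiated cells. Counting error is thus small for the leading transcripts and large for the others.

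Gm28653 is shown first by sequence because its annotated exons hold a pair of muscle microRNAs. It lies on chromosome 1 (mm10, 20669882 to 20684298, plus strand) as an intergenic long noncoding RNA of 5551 exonic bases, at the locus of the muscle RNA known as linc-MD1. The exons also hold mmu-miR-133b-5p and part of mmu-miR-206-5p, which are not printed. The 3p forms of this pair, from RefSeq on GRCm38.p6, are given 5′ to 3′ with the seed (bases 2 to 8) in capitals.
mmu-miR-206-3p: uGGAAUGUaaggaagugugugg
mmu-miR-133b-3p: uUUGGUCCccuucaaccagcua
The first lies at chr1:20679055-20679076 and the second at chr1:20682834-20682855, both on the plus strand and within exons. The hairpin of Mir206 starts 5′ of the annotated exon and is only partly exonic. The seeds differ, so the pair falls in separate seed groups. MiR-206 and miR-133b are known as skeletal muscle microRNAs. These libraries of polyadenylated RNA do not measure mature microRNAs, and the row of Mir133b held 0 counts in all 6 libraries.

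**Figure D1:**
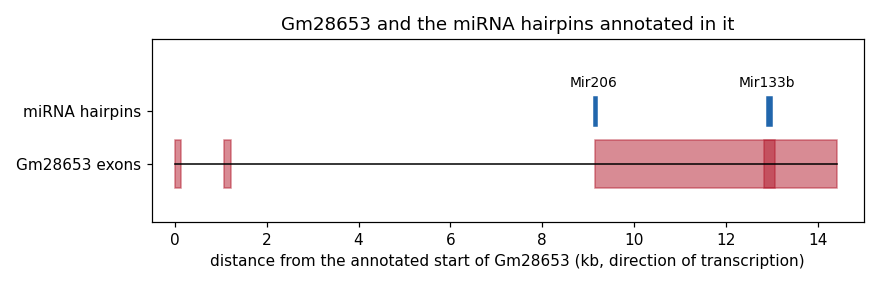
Exons of Gm28653 (red, all annotated isoforms drawn together) and the hairpins of Mir206 and Mir133b (blue) along the gene, in kb from its annotated start. Mir133b lies inside an exon and Mir206 sits across the start of the longest one.

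Promoters are shown for the 5 transcripts of highest muscle level that had 1 RefSeq promoter window and no annotated exon within it. Each is the 250 bases before the RefSeq start of the gene on GRCm38.p6, in the direction of transcription, with every E-box (CANNTG, either strand) in capitals.
1110002E22Rik: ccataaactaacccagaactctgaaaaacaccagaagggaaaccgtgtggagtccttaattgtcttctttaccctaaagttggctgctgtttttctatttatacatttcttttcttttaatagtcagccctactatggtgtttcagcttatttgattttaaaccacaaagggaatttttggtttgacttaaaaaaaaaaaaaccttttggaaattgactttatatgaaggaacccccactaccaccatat
5430431A17Rik: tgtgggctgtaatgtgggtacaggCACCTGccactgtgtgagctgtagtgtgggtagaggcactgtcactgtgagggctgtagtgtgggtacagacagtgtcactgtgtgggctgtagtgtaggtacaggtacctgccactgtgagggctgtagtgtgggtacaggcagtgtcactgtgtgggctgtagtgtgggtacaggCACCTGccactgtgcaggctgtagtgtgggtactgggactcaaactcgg
Gm14635: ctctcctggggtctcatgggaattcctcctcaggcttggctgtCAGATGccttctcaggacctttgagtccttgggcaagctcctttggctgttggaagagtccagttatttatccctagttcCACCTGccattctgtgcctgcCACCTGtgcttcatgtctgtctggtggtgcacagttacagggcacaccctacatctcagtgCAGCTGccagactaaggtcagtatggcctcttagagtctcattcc
3300002P13Rik: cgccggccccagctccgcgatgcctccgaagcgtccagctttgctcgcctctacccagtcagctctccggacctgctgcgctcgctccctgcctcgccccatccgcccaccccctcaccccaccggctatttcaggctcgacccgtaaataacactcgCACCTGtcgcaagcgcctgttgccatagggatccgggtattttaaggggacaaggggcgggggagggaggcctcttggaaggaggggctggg
2310043M15Rik: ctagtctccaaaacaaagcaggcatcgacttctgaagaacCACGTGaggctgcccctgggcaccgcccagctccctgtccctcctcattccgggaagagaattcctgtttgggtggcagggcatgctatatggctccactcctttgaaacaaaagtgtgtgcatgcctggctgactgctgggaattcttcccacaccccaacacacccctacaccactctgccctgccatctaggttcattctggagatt
They lie at chr3:138061992-138062241 (plus strand), chr7:44484267-44484516 (plus), chrX:12354997-12355246 (minus), chr7:3423446-3423695 (minus) and chr16:93794902-93795151 (minus), in that order. The window of 1110002E22Rik held no E-box and 2 matches to TATAAA, both on the strand opposite to the gene. The RefSeq start of this gene lies upstream of its GENCODE start at 138065052. The window of 5430431A17Rik held CACCTG with its first base 226 and 49 bases before the start, and this start lies inside the longer gene model of GENCODE. That of Gm14635 held 4 E-boxes, among them CAGCTG 45 bases before the start. The window of 3300002P13Rik held 1 E-box at 92 bases, and that of 2310043M15Rik held CACGTG at 210 bases.

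Of the 105 transcripts, 98 were found by symbol in GENCODE M21, 4 only in RefSeq and 3 in neither (Gm50164, Gm49999 and Gm49808). By annotated kind, 37 were intergenic long noncoding RNAs, 19 protein coding, 15 antisense and 13 processed transcripts, a class without an open reading frame. Another 9 were of the GENCODE class TEC, models that await experimental support, 4 were RefSeq-only noncoding RNAs and 3 were pseudogenes. The remaining kinds had 1 transcript each, a bidirectional promoter RNA (2810030D12Rik) and a sense intronic RNA (4632404M16Rik). They were spread over all autosomes and the X chromosome, with the largest numbers on chromosome 10 (11), chromosome 2 (10) and chromosome 3 (9). Exonic bases were shared with another annotated gene in 36, and 62 shared none. No source used here gives the strand setting of the counting, so the reads of those 36 cannot be assigned with certainty to one of the overlapping genes.

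On in muscle by the same thresholds were 0.344% of Rik and Gm symbols and 2.95% of all other symbols (730 genes). The 105 transcripts summed to 1821 and 1908 CPM in the muscle libraries, to 13.6 and 19.5 CPM in MEF, and to 1040 and 1032 CPM in transdifferentiated cells. The median transcript stood at 4.95 CPM in muscle and at 0.0527 CPM in MEF. The muscle replicates lay within 2-fold of each other for 88 of 105.

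The highest was 1110002E22Rik, annotated as protein coding on chromosome 3 (138065052 to 138081506, plus strand). It stood at 1.0 and 0.843 CPM in MEF, 422 and 445 CPM in muscle, and 153 and 178 CPM in transdifferentiated cells. The groups did not overlap, and the transdifferentiated libraries lay between the others. Gm28653, the microRNA host described above, stood at 0.105 and 0.211 CPM in MEF, 223 and 259 CPM in muscle, and 114 and 97.5 CPM in transdifferentiated cells, in the same order of groups. The intergenic RNA 5430431A17Rik (chromosome 7, 44473538 to 44486138, plus strand) stood at 0.0526 and 0.0527 CPM in MEF, 178 and 182 CPM in muscle, and 20.5 and 23.2 CPM in transdifferentiated cells. Here too the groups did not overlap, and the transdifferentiated libraries were at 12.2% of muscle, against 43.9% for Gm28653.

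3425401B19Rik (chromosome 14, 32659119 to 32685293, minus strand) has the RefSeq synonym Cefip, a protein known from the Z-disc of heart muscle. It stood at 0.158 and 0.105 CPM in MEF, 187 and 172 CPM in muscle, and 79.1 and 118 CPM in transdifferentiated cells. Gm14635, an intergenic RNA on the X chromosome, stood at 0.0526 and 0.0527 CPM in MEF, 56.9 and 78.0 CPM in muscle, and 35.5 and 29.2 CPM in transdifferentiated cells. For both, all transdifferentiated libraries were below all muscle libraries. 3300002P13Rik, an intergenic RNA on chromosome 7, stood at 0 and 0.0527 CPM in MEF, 38.7 and 39.5 CPM in muscle, and 46.7 and 37.7 CPM in transdifferentiated cells, where muscle and transdifferentiated libraries overlapped.

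Per kilobase of exon the order changed. 5430431A17Rik led with 116 CPM per kb in muscle, followed by the pseudogene Gm12439 at 77.9 CPM per kb. Next came Gm28653 and 1110002E22Rik, both at 43.4 CPM per kb, and Gm14635 at 41.8 CPM per kb. The reads of a pseudogene may be split with a near-identical copy, so the level of Gm12439 is uncertain. Gm12439 also lies 1654 bases from Cavin4 on the same strand. Its counts were 4.68% and 4.07% of those of Cavin4 in muscle, 2.63% and 4.31% in transdifferentiated cells and 3.08% and 2.97% in MEF. The part of Cavin4 in its level was not tested. The median over the 98 transcripts with an exonic length was 3.28 CPM per kb in muscle and 1.87 CPM per kb in transdifferentiated cells.

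**Figure D2:**
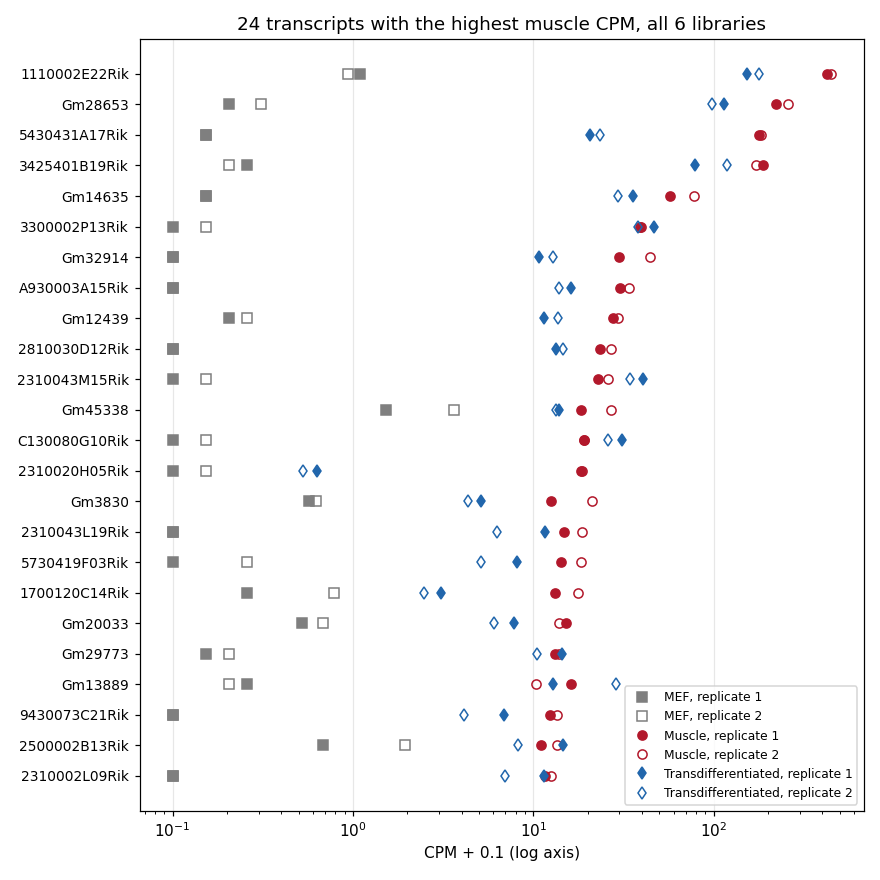
CPM (plus 0.1, log axis) in each of the 6 libraries for the 24 transcripts with the highest muscle level. Transdifferentiated libraries (blue diamonds) lie above MEF in each, and below muscle (red circles) in several, such as 5430431A17Rik at 12.2% of its muscle level and 2310020H05Rik with 0.535 and 0.427 CPM against 18.2 and 18.4 CPM.

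The thresholds cut a continuum. Just inside the level threshold stood Gm49808 at 2.01 CPM, Gm20655 at 2.03 CPM and Gm48752 at 2.13 CPM in muscle, and just outside it Gm45457 at 1.99 CPM, D430041D05Rik at 1.95 CPM and D830039M14Rik at 1.91 CPM. Just inside the fold threshold stood 4933403O08Rik at 8.06 times, Gm44698 at 8.22 times and 4932442E05Rik at 8.40 times. Just outside it were Gm29170 at 7.67 times, Gm30074 at 7.56 times and Gm39469 at 7.38 times. The choice also rested on single libraries: 91 of the 105 were still chosen without the first muscle library and 91 without the second, 96 without the first MEF library and 98 without the second. 2310046K23Rik, for example, stood at 9.44 CPM in the first muscle library and 0.472 CPM in the second. The share of all tested genes called higher in muscle than in MEF was 17.3%, which is given as background only. In the authors' deposited table, 87 of the 105 were listed, each with a negative log2 fold change, and 18 were not. That table listed 2806 genes, 352 of them Rik or Gm, and does not name its comparison. A negative value would be the sign of MEF over muscle, if those groups were compared. The 105 were chosen in the same libraries for a high ratio of muscle to MEF. A shared sign was therefore favoured by the choice and is no support.

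The same thresholds were then read in the transdifferentiated libraries, which had no part in the choice, although the MEF libraries did. Of the 105, 65 (61.9%) were on, at 2 CPM or more and 8 times MEF. Over all symbols counted, 1.61% were on in transdifferentiated cells, and among the 730 other symbols on in muscle 77.1% were. Those 730 had a median muscle level of 33.8 CPM, against 4.95 CPM for the 105. A fixed level of 2 CPM is reached more easily from a higher muscle level, so 61.9% and 77.1% are not like for like. The remaining 40 divided into 31 under 2 CPM, 23 of which were still called higher than MEF by edgeR, and 9 at 2 CPM or more that missed the fold over MEF. Among the 9 were Gm45338, at 1.42 and 3.53 CPM in MEF, 18.3 and 26.9 CPM in muscle and 13.8 and 13.2 CPM in transdifferentiated cells, and Gm3830, at 0.474 and 0.527 CPM in MEF and 4.995 and 4.27 CPM in transdifferentiated cells. Leaving out 1 library at a time gave 59 to 74 transcripts on in transdifferentiated cells among 103 to 113 chosen.

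The share on in transdifferentiated cells differed with the muscle level. Of the 27 transcripts at 10 CPM or more in muscle 22 were on, and of the 78 below it 43 were. The fixed level of 2 CPM is missed more easily from a low muscle level, so these shares do not compare relative levels. The median level in transdifferentiated cells was 47.4% of muscle for the 27 and 68.1% for the 78. Of the 30 with 0 counts in both MEF libraries 18 were on. Rik symbols (30 of 47) and Gm symbols (35 of 58) had similar shares. No test was made of these differences. In bulk samples, fewer cells of a type and less RNA per cell cannot be told apart.

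By edgeR's quasi-likelihood test, 96 of the 105 rose from MEF to transdifferentiated cells, as did 15.9% of the 17400 tested genes. By edgeR 0 were lower, against 11.3% of tested genes. At an unadjusted p under 0.05 the edgeR count was also 0, and DESeq2 gave 0. The MEF libraries are those that the choice required to be low, so a rise from them was favoured by the choice. All 105 passed the filter on low counts, as their muscle level ensured, and that count is no support. The median log2 fold change over the 105 was 5.75, or 4.43 with the 30 transcripts at 0 counts in MEF set at their lower bounds, against 0.07 over all tested genes. Among the other symbols on in muscle, 94.7% were higher. Of the 96 calls, 86 held in every fit that left out 1 library.

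A ratio to MEF becomes large where MEF was at or near 0, so the examples here carry bounds, counts or standard errors. A930003A15Rik, an intergenic RNA on chromosome 16, had 0 counts in MEF, 30.1 and 33.9 CPM in muscle and 16.2 and 13.9 CPM in transdifferentiated cells, a rise of at least 95.04-fold (edgeR adjusted p 1.5e-05). 2810030D12Rik was also at 0 in MEF, at 23.2 and 26.8 CPM in muscle and at 13.3 and 14.5 CPM in transdifferentiated cells, a rise of at least 87.8-fold (edgeR adjusted p 2.04e-05). For 5430431A17Rik, with 2 MEF counts in all, the ratio of pooled counts was 418 with an exact 95% interval of 115 to 3457 that covers counting error only. 1110002E22Rik, with 35 MEF counts, rose by 7.48 ± 0.34 (SE) in log2 units (adjusted p 1.88e-06 in edgeR).

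The 9 that were called neither way against MEF were 4930447F24Rik, 2310046K23Rik, Gm11243, 4930431P22Rik, Gm30571, Gm37285, Gm50164, 4932442E05Rik and Gm20655. 4930447F24Rik, a processed transcript that overlaps Bsn on the opposite strand, was the one of these above 2 CPM in transdifferentiated cells, at 2.022 and 2.47 CPM against 0.790 and 1.16 CPM in MEF and 14.2 and 9.79 CPM in muscle. The other 8 were at or below 0.714 CPM in both transdifferentiated libraries. Macrophage markers moved with this comparison. Summed over the 10 listed (Lyz2, C1qb and Csf1r among them) they stood at 84.4 and 94.1 CPM in MEF, 5.41 and 2.06 CPM in muscle, where Adgre1, Tyrobp and Ptprc were at 0, and 922 and 721 CPM in transdifferentiated cells. Of the 10, 9 were higher than in MEF by edgeR, and their part in the result was not tested.

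Against muscle, 23 of the 105 were lower in transdifferentiated cells and 2 were higher by edgeR, where 2.46% and 7.58% of the tested genes were. The remaining 80 were called neither way, which does not show that they were at the muscle level. The muscle libraries are those the choice required to be high, so lower values elsewhere were favoured by the choice. Among the other symbols on in muscle, chosen the same way, 20.3% were lower and 3.01% higher. The median log2 fold change of the 105 was -0.80 against 0.03 over all tested genes. On the CPM scale the median transcript reached 60.9% of its muscle level, with quartiles at 37.5% and 94.2%, and the other symbols on in muscle reached 72.8%. There were 22 transcripts above their muscle level and 6 under 10% of it.

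**Figure D3:**
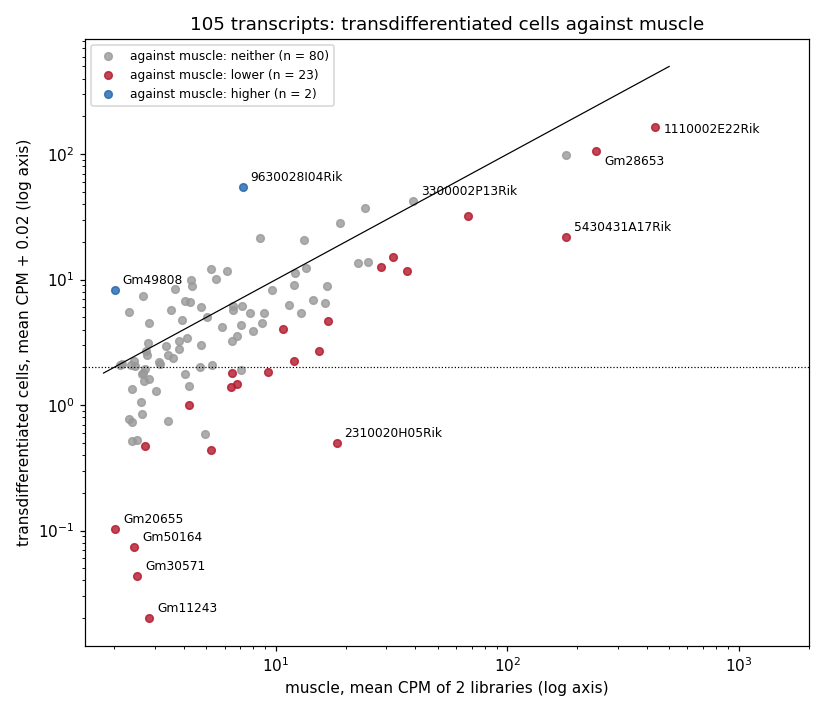
Mean CPM in transdifferentiated cells (plus 0.02) against mean CPM in muscle for the 105 transcripts, both on log axes. The solid line marks equal levels, the dotted line the level of 2 CPM, and colours the edgeR calls, 23 lower, 2 higher and 80 neither.

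The lower calls took in several of the most abundant transcripts, with 12 of the 27 at 10 CPM or more in muscle and 11 of the 78 below. Low counts make a call harder to reach, so these numbers do not show where the shortfall was larger. Of the 6 transcripts under 10% of their muscle level, 5 were among the 78. 1110002E22Rik was lower by 1.46 ± 0.25 in log2 units (adjusted p 0.00658 in edgeR), and Gm28653 by 1.27 ± 0.24 (adjusted p 0.0115 in edgeR). The call of 1110002E22Rik was lost without either muscle library (adjusted p 0.0508 and 0.0663). That of Gm28653 was lost without either muscle library (0.0644 and 0.122) and without the second transdifferentiated library (0.0534). The drop was deeper in 5430431A17Rik, by 3.12 ± 0.26 (edgeR adjusted p 0.000251), which held in every fit that left out 1 library. 3425401B19Rik, at 55.1% of muscle, was not called (-0.93 ± 0.29, edgeR adjusted p 0.0846).

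Gm32914, an intergenic RNA near Sspn on chromosome 6, had 0 counts in MEF and stood at 29.7 and 44.2 CPM in muscle and 10.7 and 12.8 CPM in transdifferentiated cells. Its edgeR call (adjusted p 0.0163) was lost without the second muscle library (0.156) and without the first transdifferentiated library (0.0671). Gm12439 stood at 0.105 and 0.158 CPM in MEF, 27.6 and 29.3 CPM in muscle, and 11.4 and 13.7 CPM in transdifferentiated cells. Gm14635 (edgeR adjusted p 0.0272), A930003A15Rik (0.0406) and Gm12439 (0.027) had log2 differences between -1.145 and -1.256, and each call was lost without any one of the muscle or transdifferentiated libraries, at adjusted p from 0.0534 to 0.267. The number of lower calls fell from 23 to 10 without the first muscle library, to 7 without the second, and to 15 and 14 without the first and the second transdifferentiated library. Of the 23, 5 held in every fit that left out 1 library, namely 5430431A17Rik, 2310020H05Rik, Gm11243, Gm30571 and Gm50164.

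There were 6 transcripts under 10% of their muscle level. The one with the most muscle counts was 2310020H05Rik, an intergenic RNA on chromosome 13 of 6 exon blocks, at 0 and 0.0527 CPM in MEF, 18.2 and 18.4 CPM in muscle, and 0.535 and 0.427 CPM in transdifferentiated cells. It reached 2.63% of muscle, a log2 difference of -5.32 ± 0.46 (edgeR adjusted p 0.000263), with all transdifferentiated libraries far below muscle. Against MEF it was higher with 18 counts over 1 (edgeR adjusted p 0.00937). Gm12185, which has the synonym Irgb2b1 of the immunity-related GTPase family, stood at 0.0526 and 0 CPM in MEF, 4.19 and 6.25 CPM in muscle and 0.416 and 0.427 CPM in transdifferentiated cells (edgeR adjusted p 0.00466), a call lost without the second muscle library (0.0534).

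The other 4 had under 3 counts in each transdifferentiated library. Gm11243, a pseudogene that overlaps Ptprd on the opposite strand, had 119 counts in muscle (2.97 and 2.71 CPM) and 0 in transdifferentiated cells, at least 17.7-fold lower. Gm30571 had 108 counts in muscle (2.97 and 2.06 CPM) and 1 in transdifferentiated cells, a ratio of muscle to transdifferentiated of 98.5 with an exact 95% interval of 17.3 to 3927. Gm50164 had 104 (2.77 and 2.12 CPM) and 2 counts, a ratio of 47.4 (12.8 to 397), and Gm20655 had 78 (1.22 and 2.83 CPM) and 3 counts, a ratio of 23.7 (7.82 to 117). These intervals cover counting error only. In MEF, Gm20655 had 2 counts and the other 3 had 0. The protein-coding gene that Gm20655 lies antisense to, Txlnb, stood at 72.2 and 95.6 CPM in muscle and 58.8 and 70.0 CPM in transdifferentiated cells, and Ptprd at 62.8 and 79.6 CPM and 74.9 and 64.2 CPM.

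Of the 5 satellite-cell markers, 2 were lower in transdifferentiated cells than in muscle by edgeR and the others were not. Pax7, the transcription factor of muscle stem cells, stood at 15.8 and 14.1 CPM in muscle and 0.0595 and 0.0475 CPM in transdifferentiated cells (edgeR adjusted p 0.000251). Myf5, a myogenic factor of the same cells, stood at 29.6 and 37.5 CPM and 0.297 and 0.142 CPM (edgeR adjusted p 0.000101). Summed, the 5 satellite-cell markers stood at 346 and 339 CPM in muscle and 219 and 394 CPM in transdifferentiated cells, and 2 of the 5 were lower and 1 higher. Fibroblast markers moved too: 5 of the 8 were higher in transdifferentiated cells than in muscle by edgeR and 0 were lower. Lum, a matrix proteoglycan, stood at 41.6 and 53.6 CPM in MEF, 1.22 and 0.531 CPM in muscle and 173 and 97.3 CPM in transdifferentiated cells. Summed, the 8 stood at 9957 and 5364 CPM in muscle and 10330 and 12307 CPM in transdifferentiated cells, with none at 0 in any group. All 10 macrophage markers, 3 of the 5 Schwann cell markers and 2 of the 6 endothelial markers were also higher than in muscle. The part of these lists in the lower calls was not tested.

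The 2 transcripts called higher than muscle were 9630028I04Rik and Gm49808. 9630028I04Rik, a RefSeq noncoding RNA on chromosome 17, stood at 0.0526 and 0 CPM in MEF, 12.6 and 1.83 CPM in muscle, and 50.7 and 57.8 CPM in transdifferentiated cells. Both transdifferentiated libraries were above both muscle libraries, which differed from each other several-fold. It was higher by 2.81 ± 0.71 in log2 units (adjusted p 0.0381 in edgeR), a call lost without the second muscle library (0.0631) and without the second transdifferentiated library (0.0514). Gm49808 stood at 0 in MEF, 2.07 and 1.95 CPM in muscle, and 9.40 and 7.02 CPM in transdifferentiated cells. It was higher by 1.93 ± 0.41 (edgeR adjusted p 0.0227), a call lost without either muscle library (0.136 and 0.165) and without the first transdifferentiated library (0.0959). Without the second muscle library neither was called.

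Others lay above muscle without passing the test. 2310043M15Rik, antisense to Dop1b on chromosome 16, stood at 0 and 0.0527 CPM in MEF, 22.8 and 25.8 CPM in muscle and 40.4 and 34.1 CPM in transdifferentiated cells (153% of muscle, edgeR adjusted p 0.37). 4930429F24Rik stood at 0.0526 and 0 CPM in MEF, 8.87 and 8.14 CPM in muscle and 24.97 and 18.1 CPM in transdifferentiated cells (253%, edgeR adjusted p 0.0585). Gm1600, an intergenic RNA on chromosome 16, had 0 counts in MEF and stood at 6.55 and 3.89 CPM in muscle and 10.6 and 13.8 CPM in transdifferentiated cells (233%, edgeR adjusted p 0.152). In each of these both transdifferentiated libraries were above both muscle libraries. Gm36543 stood at 0.211 and 0.105 CPM in MEF, 1.99 and 3.36 CPM in muscle and 9.69 and 5.17 CPM in transdifferentiated cells (278%, edgeR adjusted p 0.118). Gm35330 stood at 0 and 0.263 CPM in MEF, 2.89 and 1.77 CPM in muscle and 6.96 and 4.13 CPM in transdifferentiated cells (238%, edgeR adjusted p 0.344).

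The annotated kinds overlapped widely in how near they came to muscle. The median was 66.2% for the 19 protein-coding transcripts, 57.0% for the 37 intergenic RNAs, 62.6% for the 13 processed transcripts and 42.1% for the 15 antisense RNAs. The 9 models of class TEC had a median of 85.6%, and none of them was called lower than muscle. On in transdifferentiated cells were 12 of 19 protein-coding, 25 of 37 intergenic, 7 of 13 processed, 7 of 15 antisense and 7 of 9 TEC models. No test was made between kinds. Transcripts that shared exonic bases with another gene (median 61.1%, n = 36) and those that shared none (60.9%, n = 62) had close medians.

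**Figure D4:**
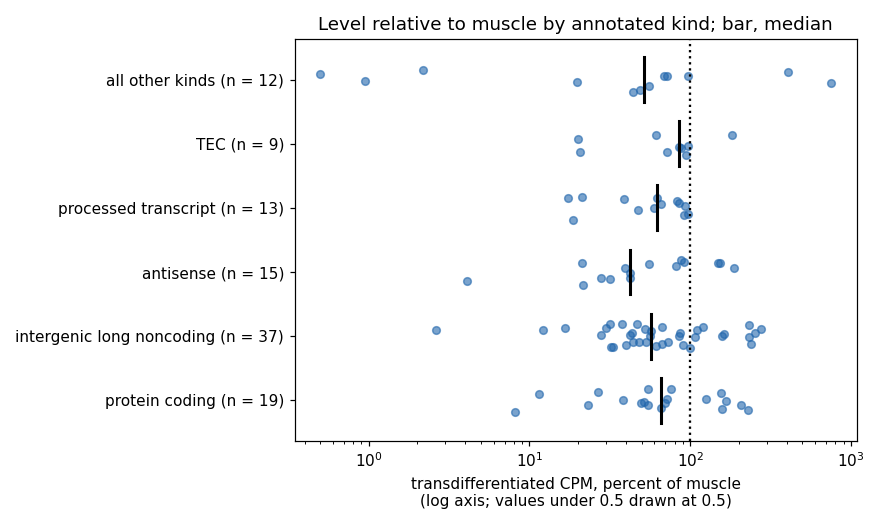
Level in transdifferentiated cells as percent of muscle (log axis) for each of the 105 transcripts, by annotated kind; bars are medians and the dotted line marks 100%. Every kind with more than 10 transcripts spans from under 30% to near or above 100%.

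Protein-coding members were of mixed kinds. 2310002L09Rik on chromosome 4 had 0 counts in MEF, 11.5 and 12.5 CPM in muscle, and 11.4 and 6.83 CPM in transdifferentiated cells. Gm13889 stood at 0.158 and 0.105 CPM in MEF, 16.1 and 10.3 CPM in muscle and 12.7 and 28.7 CPM in transdifferentiated cells, where muscle and transdifferentiated libraries overlapped. Gm17455, within Cdh23 on the opposite strand, stood at 0.0526 and 0.0527 CPM in MEF, 12.98 and 9.73 CPM in muscle and 4.76 and 7.74 CPM in transdifferentiated cells. Gm9821, on the strand opposite Dgkz, stood at 0.211 and 0.474 CPM in MEF, 8.79 and 8.67 CPM in muscle and 3.15 and 5.88 CPM in transdifferentiated cells. Gm32742 had 0 counts in MEF and stood at 8.01 and 6.14 CPM in muscle and 1.01 and 2.75 CPM in transdifferentiated cells. 2610528A11Rik, with the synonym Gpr15l (a ligand of the receptor GPR15), stood at 0 and 0.580 CPM in MEF, 7.12 and 5.78 CPM in muscle and 2.26 and 4.13 CPM in transdifferentiated cells. None of these was called different from muscle, and each was higher than MEF by edgeR.

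Genes next to the transcripts were read from the same fit. For the 98 placed by GENCODE, the nearest named protein-coding gene overlapped in 37 (37.8%, against 36.3% for all tested Rik and Gm genes) and the median distance was 1724 bases (3648 for all). Neighbours were counted per transcript, so a gene nearest to several of them, such as Frem2 or Dyrk2, entered more than once. Of the 87 such neighbours that were tested, 47 (54.0%) were higher in muscle than in MEF, against 19.2% of the neighbours of all tested Rik and Gm genes. In transdifferentiated cells 42 (48.3%) of them were higher than in MEF, against 18.9%. With the nearest named gene of any kind, the counts were 45 of 81 and 40 of 81, against 19.5% and 18.5%. The version with protein-coding neighbours was chosen after values were seen. Of the 98 transcripts 36 share exonic bases with another gene, and the part of such sharing in these counts was not tested.

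Within 2000 bases of a protein-coding gene that was higher in muscle lay 31 of the transcripts, 25 of them on the opposite strand and 22 overlapping it. Of the 31, 20 were on in transdifferentiated cells. C130080G10Rik lies on the opposite strand 787 bases from Actc1, cardiac alpha-actin, which also marks developing skeletal muscle. It stood at 0 and 0.0527 CPM in MEF, 18.9 and 19.1 CPM in muscle, and 31.1 and 25.7 CPM in transdifferentiated cells. Its counts were 0.145% and 0.169% of those of Actc1 in muscle and 0.26% and 0.183% in transdifferentiated cells. 3300002P13Rik lies 750 bases from Cacng6, a muscle calcium channel subunit, and on the opposite strand. Its counts were 77.9% and 78.0% of those of Cacng6 in muscle and 132% and 74.0% in transdifferentiated cells, so the members of this pair were at similar counts.

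In other pairs the mean levels stood at unlike percents of muscle. 9430073C21Rik is antisense to Myh2, the fast IIa myosin heavy chain, and shares 237 exonic bases with it. It stood at 0 in MEF, 12.2 and 13.5 CPM in muscle, and 6.78 and 4.03 CPM in transdifferentiated cells, 42.0% of muscle, while Myh2 stood at 167 and 102 CPM in muscle and 361 and 406 CPM in transdifferentiated cells, 285% of muscle. Its counts thus went from 7.33% and 13.3% of those of Myh2 to 1.88% and 0.994%. 2810030D12Rik lies 100 bases from Grtp1 on the opposite strand and reached 55.4% of muscle where Grtp1 reached 150%. In the other direction, Gm14137, which overlaps Dnajc17 on the opposite strand, reached 206% of muscle where Dnajc17 reached 56.1%. Of the genes in these pairs, edgeR called Myh2 alone different from muscle, and it was higher. Called neither way by edgeR were 9430073C21Rik (adjusted p 0.0683), 2810030D12Rik (0.108), Gm14137 (0.366), Grtp1 and Dnajc17. Gm15934, antisense to Popdc3, reached 21.2% and Popdc3 18.7%, so here both mean levels were low. By edgeR Popdc3 was called lower than muscle, and Gm15934 was not (adjusted p 0.059). Of the 525 exonic bases of Gm15934, 120 are shared with Popdc3. Its counts lay between 0.644% and 1.53% of those of Popdc3 across the muscle and transdifferentiated libraries. The part of Popdc3 reads in the level of Gm15934 was not tested. Popdc3, a membrane protein of striated muscle, stood at 329 and 360 CPM in muscle and 69.8 and 58.9 CPM in transdifferentiated cells.

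**Figure D5:**
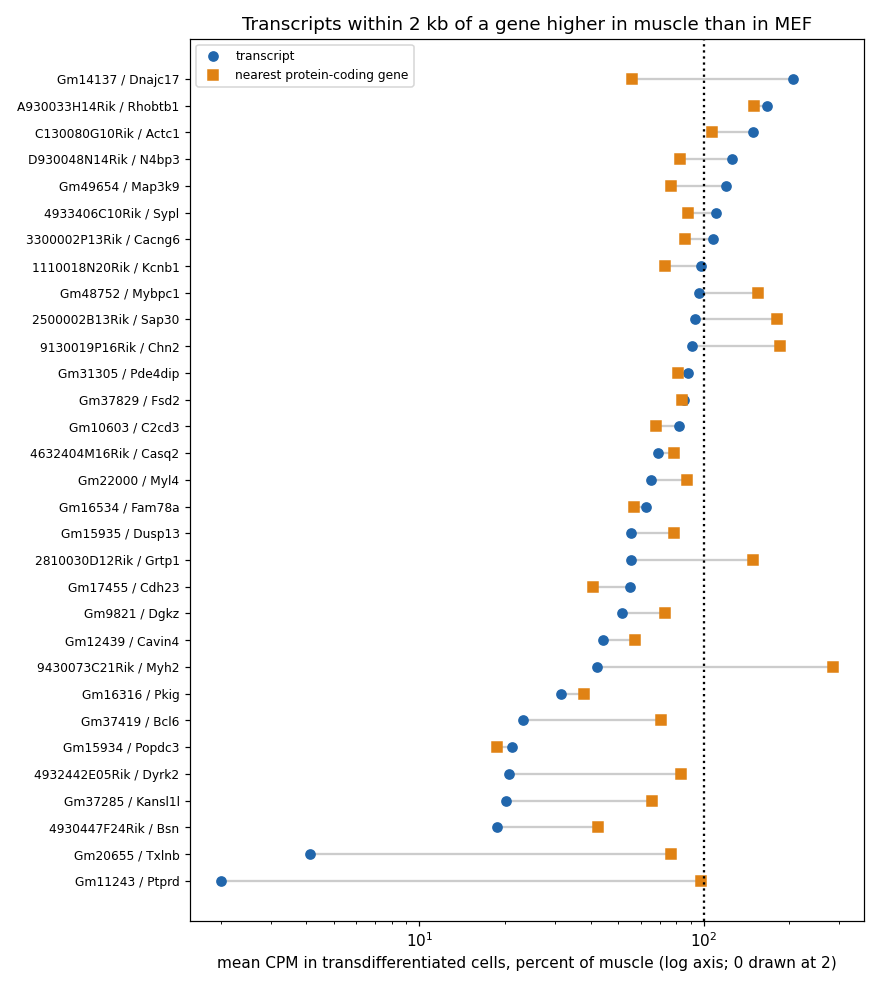
Level in transdifferentiated cells as percent of muscle (log axis) for 31 transcripts (circles) and the protein-coding gene within 2000 bases (squares), joined by a line. The pair of 9430073C21Rik and Myh2 lies far apart at 42.0% and 285%, and that of Gm15934 and Popdc3 lies together at 21.2% and 18.7%.

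At some muscle loci a transcript was counted at a fraction of a percent of the neighbour's counts. 4632404M16Rik, in an intron of Casq2 (the calcium-binding protein calsequestrin), was at 0.746% and 0.773% of Casq2 in muscle. Gm22000, opposite Myl4 (an embryonic myosin light chain), was at 0.108% and 0.0896%, and Gm48752, opposite Mybpc1 (slow myosin-binding protein C), at 0.112% and 0.253%. 4632404M16Rik lies on the same strand as Casq2. Gm48752 shares 252 exonic bases with Mybpc1, and Gm22000 shares exonic bases with Myl4. The part of the neighbour's reads in these levels was not tested. Further away, 1700025L06Rik lies 27101 bases from Myod1 and stood at 0 in MEF, 6.83 and 10.9 CPM in muscle, and 6.60 and 4.18 CPM in transdifferentiated cells. B230312C02Rik lies 3163 bases from Mir1a-1, which encodes a muscle microRNA, and stood at 5.21 and 4.84 CPM in muscle and 4.40 and 5.60 CPM in transdifferentiated cells.

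The RefSeq table held 70 promoter windows for 60 of the 105 genes. At least 1 CANNTG lay in 64.3% of the 70, against 66.2% of all 32851 promoters and 72.3% of those of Rik and Gm genes. CAGCTG, a form bound by MYOD1, lay in 16 (22.9%), against 13% of all and 14.0% of Rik and Gm promoters. CAGGTG (or CACCTG on the other strand) lay in 21.4% against 17.2% of all. TATAAA lay in 14.3% against 12.4%, the MCAT element CATTCC in 18.6% against 12.6%, the MEF2 site in 5.71% against 2.92% and the SRF CArG box in 1.43% against 1.47%. CAGCTG and CAGGTG matches are a subset of the CANNTG matches. Both strands were searched. These shares are a description with no test.

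For comparison, named small proteins and noncoding RNAs of muscle were read from the same fit. Of 10 listed small proteins (such as Sln, the calcium pump regulator sarcolipin, and Mymx, the fusion peptide) 8 were in the table. By edgeR 7 of these rose from MEF to transdifferentiated cells and 1, Pln, was lower than in muscle (4.03 and 3.83 CPM in muscle, 0.832 and 1.14 CPM in transdifferentiated cells). Of 12 listed long noncoding RNAs 11 were in the table, and 5 were higher than in MEF. Against muscle, Meg3, Rian and Mirg, noncoding RNAs of the imprinted Dlk1 to Dio3 domain, were higher and Neat1 was lower. Meg3 stood at 1316 and 812 CPM in MEF, 290 and 138 CPM in muscle and 3078 and 4748 CPM in transdifferentiated cells. Rian and Mirg too were above muscle in MEF. Rian stood at 436 and 769 CPM in MEF and 81.0 and 80.3 CPM in muscle. Mirg stood at 79.6 and 59.9 CPM in MEF and 8.54 and 5.84 CPM in muscle.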

How the data were processed

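RNA of 2 MEF, 2 muscle and 2 transdifferentiated samples was sequenced. RNA came from a Qiagen column kit and libraries from Lexogen's SENSE mRNA-seq V2 kit, read as 75-bp single ends on a NextSeq 500, per the labels' protocols. Raw counts for each gene symbol were deposited by the authors, without normalization. Per the submitters' processing notes, the tools were DESeq2 1.26.0, featureCounts 1.6.2, HISAT2 2.1.0 and Trim Galore 0.6.0 and the build was mm10, with no roles stated. No source used here gives the annotation or the strand setting of counting, so overlapping and antisense genes are uncertain. The authors' deposited table gives log2 fold changes and p-values for 2806 genes, and its column of mean signal over libraries, also deposited, was not used. All columns of the count table were mapped to samples by their labels.

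CPM was computed on library totals. Counts passing filterByExpr (17400 genes) were scaled by TMM and fitted with edgeR 4.0.16 in R 4.3.3 (quasi-likelihood, robust, all 6 libraries, group as the term). Calls are at a Benjamini-Hochberg adjusted p under 0.05 over all tested genes, after the procedure was tested on simulated data. The deposited DESeq2 was not rerun; DESeq2 1.42.0 served as an alternative. Fitted folds of genes at 0 in a group are no bounds, so folds of at least a given size use 3 counts per library as the limit, averaged over the group (0.158 CPM in MEF). Positions are from GENCODE M21 by symbol, and promoters and microRNAs from RefSeq on GRCm38.p6. The text gives every library's value for the 12 transcripts with the highest muscle level, the 5 with the largest and the 5 with the smallest ratio of transdifferentiated cells to muscle (for 4 of the smallest, counts summed over the group outside muscle), and the 8 protein-coding ones with the highest muscle level, group means for those at the thresholds, and others as examples chosen after values were seen. The transcripts, lists and tests were chosen with earlier results of these data known. The alternatives were DESeq2, no low-count filter, library totals for TMM, a replicate block, fits of 4 libraries, fits without each library and other thresholds of the choice.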

Additional observations from a re-analysis of the deposited data

How the results depend on the processing

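With a muscle level of at least 1 CPM the choice gave 173 transcripts with 100 on in transdifferentiated cells, with at least 4 CPM it gave 64 and 41, and with 0.5 CPM added to MEF it gave 51 and 30. With 4 or 16 times MEF, or CPM with TMM factors, the numbers were within 1.5 times of 105 and 65. Without 1 library at a time 103 to 113 transcripts were chosen and 59 to 74 were on. Against MEF, the number called higher lay between 88 and 97 under every alternative run, and 0 were lower. Against muscle, fits that left out 1 library gave 7 to 29 lower and 0 to 3 higher, and the other alternatives gave 16 to 32 lower and 1 to 3 higher. Where this left a group with 1 library, that library was assumed to vary like the other groups. The replicate block gave 16 lower and 1 higher. Replicate numbers did not pair the samples. Deviations of same-numbered libraries correlated at 0.31 between MEF and muscle, -0.53 between MEF and transdifferentiated cells and -0.29 between muscle and transdifferentiated cells, so the block is a check only. For the 32 transcripts named by the rule, 8 recomputed calls against MEF and 32 against muscle were lost, 18 against muscle were gained, and no called direction reversed; the cause was not tested. As to depth, a count of 0 allows up to 0.122 to 0.178 CPM in a library.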

Other observations

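Outside the 105, 28 Rik and Gm transcripts were on in transdifferentiated cells by the same thresholds but not in muscle, beside 65 that were on in both. Being high in transdifferentiated cells and lower in muscle is what chose them, so their values are a description with no test. The highest was D430019H16Rik, a protein-coding gene on chromosome 12, at 0.684 and 1.32 CPM in MEF, 3.34 and 1.53 CPM in muscle, and 20.04 and 22.4 CPM in transdifferentiated cells. Gm42555, an intergenic RNA on chromosome 5, had 0 counts in MEF, 2.20 and 0.295 CPM in muscle, and 13.6 and 14.5 CPM in transdifferentiated cells. 4833415N18Rik, an intergenic RNA on chromosome 16, stood at 1.59 CPM in each muscle library and at 9.93 and 6.60 CPM in transdifferentiated cells. The protein-coding 4930555G01Rik had 0 counts in MEF and muscle and stood at 4.16 and 0.664 CPM in the transdifferentiated libraries, so the first of these decided its level.

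2310065F04Rik, an intergenic RNA on chromosome 11 (mm10, 67112461 to 67120080), missed the muscle level of 2 CPM and was on in transdifferentiated cells. It had 0 counts in MEF and stood at 1.63 and 1.65 CPM in muscle and 4.58 and 4.51 CPM in transdifferentiated cells. Being on in transdifferentiated cells and not in muscle is what chose it, so higher values than in muscle were favoured by the choice. By edgeR it was called neither way against muscle (1.39 ± 0.45 in log2 units, adjusted p 0.106).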
